A study of Mus musculus with 10 samples.

Results

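The data described here compare cells sorted as positive and as negative for Sox2 RNA, both taken from reprogramming cultures on day 32. The members are 4 of the 10 arrays of the series, chosen by their titles: Sox2-positive replicates a and b and Sox2-negative replicates a and b. All 4 came from secondary mouse embryonic fibroblasts (MEFs), that is fibroblasts derived from cells that already carry the reprogramming factors, after 32 days of expression of the Yamanaka factors (Klf4, Myc, Pou5f1 and Sox2) in standard mouse embryonic stem cell medium. The factor transgenes are shared by both fractions, and the labels give neither their promoter nor the clone of cells. The other 6 arrays hold iPSC (induced pluripotent stem cells) grown in 2i/serum, iPSC grown with MEFs, and a day 32 sample for which no fraction is named. They enter here as part of the pooled estimate of the spread and in the filter and choice of probe sets. The labels name every sample iPSCs by cell type, the fractions included, and do not say whether the 2 replicates of a group were separate cultures, so every p-value is set against the spread between these arrays alone, which may be technical.

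In RNA FACS, cells are fixed, probed for an RNA and sorted on the signal of that probe, so that a transcript takes the place of a surface marker. Reprogramming replaces the transcription factors, matrix and metabolism of a fibroblast by those of a pluripotent cell, and endogenous Sox2 is known as a gene that is activated late in that course. A culture after weeks of factor expression is known to hold cells that differ in how far they have gone. The comparison asks how day 32 cells sorted as positive and as negative for Sox2 RNA differ across all genes. In such bulk samples fewer cells of a type and less RNA per cell cannot be told apart.

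Sox2 itself, which encodes the factor used for the sort, had log2 values of 9.46 and 10.45 on the Sox2-positive arrays and 4.45 and 4.13 on the Sox2-negative arrays, which describes the sort and supports nothing further. Pou5f1 lay at 10.92 and 10.38 against 10.06 and 11.11, with the Sox2-positive arrays given first here and below and replicate a before b. Its groups overlapped and it was not called (adjusted p = 0.9277). Klf4 at 10.12 and 9.71 against 10.39 and 10.85 (adjusted p = 0.4348) and Myc at 9.37 and 6.58 against 9.0 and 9.87 (adjusted p = 0.3493) were not called either. The second Klf4 probe set had the opposite sign and was itself called higher, so the result for Klf4 depends on the probe set. With the mean of its probe sets the Klf4 difference was positive. Sox2-positive replicate b was the array with the low Myc value. Whether the probe sets of these factors also read RNA of the transgenes was not tested, so the values do not give the endogenous genes alone. Of 36 pluripotency genes tested, 31 were called higher in the Sox2-positive fraction and 0 lower, and their summed level was 14.67 and 15.01 log2 units against 12.12 and 12.81. The list was known to move this way before the work began and is given only to check the labels. Some of its members are also counted and named in lists below, among them Fgf4, Gdf3, Klf2, Klf5, Tbx3, Esrrb, Zfp42, Lin28a and Cdh1. For these genes the later paragraphs are not separate from this list.

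The 4 arrays resembled each other in technical measures. Their median log2 values were 4.31 to 4.33, their 18S ribosomal RNA control lay at 12.92 to 13.22, and 54.4% to 54.5% of probe sets exceeded a log2 value of 4. The actin probe sets at the 3′ and 5′ ends differed by 0.05 to 0.21 and those of Gapdh by 1.03 to 1.56, with the highest value on Sox2-negative replicate b. The 2i/serum and day 32 arrays stood apart from them, with 18S at 5.25 to 6.55, medians of 5.28 to 5.36 and actin ends 2.7 to 3.88 apart. They enter the spread, the filter and the choice of probe set, but not the means of the fractions. A call described below as held also stood with the 4 sorted arrays alone, on the same filter and probe sets. Across probe sets, Sox2-positive replicate a correlated with the Sox2-negative arrays at Pearson r = 0.907 and 0.911, and replicate b at 0.871 and 0.880, while the replicates of a fraction reached 0.9545 and 0.9513. Sox2-positive replicate a thus lay nearer to the negative fraction than replicate b did. It was the lower of the pair for 401 of the 590 genes called higher (68.0%) and the higher of the pair for 314 of the 486 called lower (64.6%).

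Across all genes, 590 were higher and 486 lower in the Sox2-positive fraction, or 12.5% of the 8599 genes tested. That is 6.86% called higher and 5.65% called lower, at an adjusted p under 0.05 from limma. These shares are the background for every list below, as is the median difference of all genes, which was -0.02 log2 units. A call is described as held when it stayed, in the same direction, in 5 further fits: the 4 sorted arrays alone, and the full set without each of the 4 sorted arrays in turn. By that measure 158 genes (1.84%) were held higher and 65 (0.756%) held lower. Leaving out Sox2-positive replicate b reduced the calls to 404, and 337 of the 1076 original calls stayed. The 4 sorted arrays alone kept 319 of them. The fractions did not overlap in 4439 of the 8599 genes tested, and all 1076 called genes were among these. A lack of overlap named below therefore describes the values and adds nothing to a call. Folds against a fraction in which both arrays lay under a log2 value of 4, where signal meets background, are given as lower bounds. Of the 590 genes called higher 229 were under 4 on both Sox2-negative arrays, and of the 486 called lower 156 were under 4 on both Sox2-positive arrays. In 28 called genes both fractions were under 4, so that no fold is given. Where a list's median difference is given and changes with values under 4, the median with dim genes at their bound is given beside it, a dim gene being one with both arrays of a fraction under 4 and its bound being 0 where both fractions were.

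**Figure D1:**
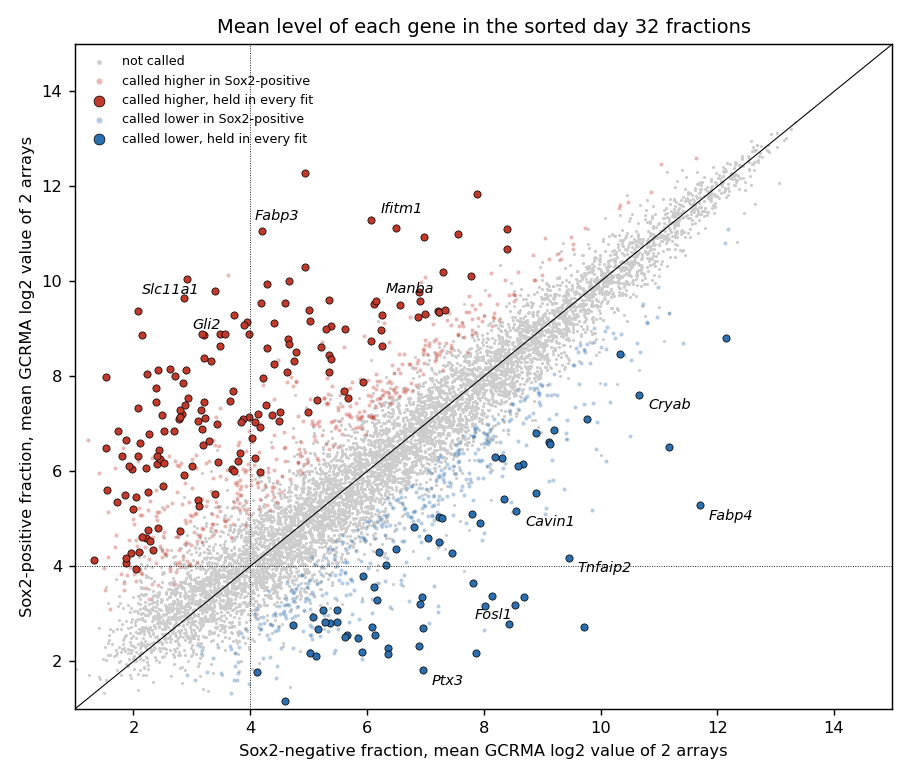
Mean GCRMA log2 value of each of 8599 genes in the Sox2-negative fraction (horizontal axis) and the Sox2-positive fraction (vertical axis), each the mean of 2 arrays. Red points were called higher and blue points lower in the Sox2-positive fraction, outlined points were held in every fit, the diagonal marks equal levels and the dotted lines mark a log2 value of 4. Of the 590 genes called higher, 229 had both Sox2-negative arrays under 4, and Fabp4 and Fabp3 lie far from the diagonal on opposite sides.

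Among genes outside the lists, the largest held rises and falls brought together genes of unlike roles. Rpp25, a subunit of RNase P, had values of 9.17 and 9.93 against 5.05 and 3.32 (41.2-fold higher; log2 difference 5.37, SE 0.57, adjusted p = 0.000943). Aplp1, a relative of the amyloid precursor protein, had 9.58 and 10.42 against 3.77 and 5.55 (40.5-fold higher), and Ifitm1, an interferon-inducible membrane protein, had 11.54 and 11.03 against 5.63 and 6.52 (37.0-fold higher). In all of these both Sox2-positive arrays lay above both Sox2-negative arrays. The junction protein Jam2 was at least 29.9-fold higher, the cytoskeletal adaptor Fblim1 at least 29.7-fold higher, the Notch ligand Dner at least 29.1-fold higher, the Akt coactivator Tcl1 at least 20.04-fold higher, the membrane glycoprotein podoplanin (Pdpn) 19.6-fold higher, the testis cytochrome c Cyct at least 17.9-fold higher and the sodium pump subunit Atp1b1 17.5-fold higher. On the other side stood Tnfaip2, a gene induced by tumour necrosis factor, with 4.9 and 3.45 against 9.44 and 9.47 (38.9-fold lower; log2 difference -5.28, SE 0.44, adjusted p = 0.000474). Its Sox2-negative arrays were nearly equal and its Sox2-positive arrays differed by more than 1 log2 unit. The caveolar coat gene Cavin1 was 10.6-fold lower, the small heat shock protein Cryab 8.25-fold lower, the secreted pentraxin Ptx3 at least 7.78-fold lower, and the kinase gene Camk2d at least 7.73-fold lower. The other held falls named by the rule were Pdzrn3 (10.2-fold), Parp3 (at least 7.54-fold), Pip5k1b (6.61-fold), Tmod2 (6.50-fold) and Rab8b (5.88-fold).

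Promoter letters of the called genes were set beside those of all genes tested. RefSeq promoters on GRCm38.p6, from 250 bases before to 50 after the start, matched 7022 of the 8599 genes, and the first listed was used for the 1495 genes that have several. Promoters of genes called in either direction had a lower ratio of observed to expected CpG dinucleotides, by median, than those of all genes tested. The median ratio of observed to expected CpG was 0.78 over all genes tested, 0.71 for genes called higher and 0.73 for those called lower, and it was 0.61 and 0.52 for the genes held higher and lower. The share of promoters with a ratio under 0.4 was 11.6% over all genes tested, 27% of 115 held higher and 36.5% of 52 held lower promoters. These are descriptions with no test. Of 15 short motifs searched on both strands, chosen after the calls were seen, only some are described here. The octamer motif ATGCAAAT stood in 1.94% of promoters called higher, 0.519% called lower and 1.38% of all. It stood in 2.61% of held higher and 0 of the held lower promoters, and these shares rest on few promoters. The Sox motif CATTGTT lay the other way, in 1.29% of promoters called higher, 2.6% called lower and 1.79% of all. Its shares were 1.74% of held higher and 1.92% of held lower promoters. The AP-1 motif was searched as TGANTCA, with any base at N, so the shares pool matches with different middle bases. It stood in 9.57% of held higher and 9.62% of held lower promoters, against 4.66% of all, but in 4.3% of all promoters called higher and 6.49% of those called lower. For the NF-kappa B motif GGGANTTNCC the shares were 3.48%, 5.77% and 1.24%, in the same order, with 1.29% of all promoters called higher and 2.6% of those called lower. A match shows letters, not binding.

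Promoters of 6 held genes with an octamer, AP-1 or NF-kappa B match are shown, picked by hand after the calls were seen. All are read 5′ to 3′ over the 250 bases before the start, with the motif in capitals. Other held genes named in the text also match and are not shown. Among them are Pla2g1b (higher) and Ptx3 (lower) for NF-kappa B and Dll1 (higher) for the octamer. For AP-1 they include Upp1, Cd68 and Slc25a13 (higher) and Ccl9 and Col6a1 (lower). The choice therefore ties no motif to a direction. Zfp42 (Rex1, a zinc finger gene of naive pluripotent cells) carries the octamer on its reverse strand (chr8:43307010-43307259, minus strand). Cldn4 (chr5:134946935-134947184, minus strand), Efemp1 (chr11:28852955-28853204, plus strand) and Krtdap (chr7:30787655-30787904, plus strand) carry the AP-1 letters. Csf1 (chr3:107760470-107760719, minus strand) carries those of NF-kappa B on its reverse strand, and Loxl4 (chr19:42612807-42613056, minus strand) carries them as printed.
Zfp42: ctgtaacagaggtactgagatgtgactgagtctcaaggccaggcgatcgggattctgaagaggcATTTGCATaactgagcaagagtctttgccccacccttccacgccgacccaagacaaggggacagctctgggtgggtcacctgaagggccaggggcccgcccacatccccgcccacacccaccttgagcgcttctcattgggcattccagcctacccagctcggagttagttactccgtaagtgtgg
Cldn4: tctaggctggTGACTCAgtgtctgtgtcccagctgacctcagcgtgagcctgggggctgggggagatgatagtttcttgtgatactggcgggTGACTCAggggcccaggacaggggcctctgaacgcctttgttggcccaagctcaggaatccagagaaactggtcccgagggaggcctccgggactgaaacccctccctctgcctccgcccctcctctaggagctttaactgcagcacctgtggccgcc
Efemp1: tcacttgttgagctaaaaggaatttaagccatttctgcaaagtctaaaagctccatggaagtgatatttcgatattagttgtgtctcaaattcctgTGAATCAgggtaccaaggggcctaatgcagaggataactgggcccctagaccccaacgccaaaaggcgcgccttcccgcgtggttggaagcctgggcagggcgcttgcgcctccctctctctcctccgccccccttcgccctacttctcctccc
Krtdap: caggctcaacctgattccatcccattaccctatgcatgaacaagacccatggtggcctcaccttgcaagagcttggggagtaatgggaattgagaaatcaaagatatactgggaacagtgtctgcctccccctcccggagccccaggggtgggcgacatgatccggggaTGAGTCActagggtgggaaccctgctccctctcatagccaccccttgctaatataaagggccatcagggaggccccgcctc
Csf1: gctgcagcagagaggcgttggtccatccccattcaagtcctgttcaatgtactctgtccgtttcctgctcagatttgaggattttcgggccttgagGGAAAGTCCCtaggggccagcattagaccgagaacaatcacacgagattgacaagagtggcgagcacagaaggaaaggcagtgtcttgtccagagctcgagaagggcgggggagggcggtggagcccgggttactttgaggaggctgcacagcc
Loxl4: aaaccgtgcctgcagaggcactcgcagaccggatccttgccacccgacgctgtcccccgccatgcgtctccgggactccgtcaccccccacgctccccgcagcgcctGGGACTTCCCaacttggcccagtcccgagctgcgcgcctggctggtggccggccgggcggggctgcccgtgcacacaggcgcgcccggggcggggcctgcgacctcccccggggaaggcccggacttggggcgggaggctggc
Cldn4 matches the AP-1 pattern at 2 places and was higher in the Sox2-positive fraction, and Efemp1 and Krtdap, with 1 match each, were lower. The middle base is C in both Cldn4 matches and G in Krtdap. In Efemp1 it is A, so that gene matches only because the pattern allows any base there.

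Transcription factors differed by family. Basic helix-loop-helix factors had 10 of 46 genes called higher and 2 lower (21.7% and 4.3%), with a median difference of 0.34 (0.2 with dim genes at their bound), and 4 and 0 without Sox2-positive replicate b. Mycn, the Myc paralogue of embryonic cells, had 9.23 and 9.55 against 5.21 and 4.8 (20.9-fold higher; log2 difference 4.39, SE 0.42, adjusted p = 0.000583), while Myc itself was not called. Tcfl5, a factor of spermatogenesis, had 8.57 and 9.69 against 3.36 and 5.47 (26.3-fold higher; log2 difference 4.72, SE 0.71, adjusted p = 0.0048). The hypoxia-inducible factor Epas1 had 7.22 and 7.3 against 4.57 and 4.45 (6.73-fold higher; log2 difference 2.75, SE 0.34, adjusted p = 0.0018). These were the 3 held members, and in each both arrays of a fraction lay apart from both of the other. The lineage factors Ascl2 (at least 4.50-fold higher), Mitf (at least 4.84-fold higher), Neurod1 (at least 6.30-fold higher) and Tcf15 (at least 5.06-fold higher) were called higher as well. Their calls were lost in at least 1 of the 5 fits, with highest adjusted p-values of 0.0524 to 0.0856, and for Mitf, Neurod1 and Tcf15 leaving out Sox2-positive replicate b was among the losses (adjusted p = 0.0559, 0.0856 and 0.0813).

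Among Krüppel-like factors, Klf5 had 9.36 and 9.72 against 4.03 and 5.15 (30.9-fold higher) and Klf2 7.12 and 7.28 against 2.6 and 3.06 (at least 9.19-fold higher), both factors of naive pluripotency and both held. The T-box factor Tbx3 (36.8-fold higher) and the nuclear receptors Esrrb (47.5-fold higher) and Nr6a1 (7.75-fold higher), the last known as germ cell nuclear factor, were held higher too. Zinc finger genes with numbered names stayed near the background, with 9 of 146 called higher and 7 lower, or 4 and 2 without Sox2-positive replicate b. Zfp42, whose promoter is printed above, had 9.15 and 10.16 against 2.47 and 3.27 (at least 50.4-fold higher; log2 difference 6.79, SE 0.45, adjusted p = 0.000261) and was held. Zfp982 (40.9-fold higher) and Zfp936 (at least 15.8-fold higher), from families of close copies whose probe sets may read more than 1 gene, were held higher, and Zfp280c was held 5.54-fold lower. Foxh1, the forkhead partner of Smad proteins in Nodal signalling, had 7.6 and 7.38 against 4.0 and 3.29 (14.4-fold higher; log2 difference 3.85, SE 0.65, adjusted p = 0.0076) and was held. It was the only forkhead gene of 17 called higher, against 4 called lower. The lower calls numbered 1 without Sox2-positive replicate b and 0 with the 4 sorted arrays alone.

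Homeobox genes had more calls lower than higher: 4 of 50 were called higher and 8 lower (8.0% and 16%), with a median of -0.67 (-0.08 with dim genes at their bound), 0 calls were held in either direction, and 1 in each direction was called without Sox2-positive replicate b. Otx2, a homeobox gene of the epiblast, had 5.98 and 6.47 against 1.92 and 3.51 (at least 4.68-fold higher), and its call was lost without Sox2-positive replicate b (limma adjusted p = 0.0556). Pax3, a neural crest and muscle progenitor gene, had 8.59 and 4.89 against 10.43 and 10.59, and its call was lost with the 4 sorted arrays alone (limma adjusted p = 0.1516), without Sox2-positive replicate b (limma adjusted p = 0.1167), without Sox2-negative replicate a (limma adjusted p = 0.1061) and without Sox2-negative replicate b (limma adjusted p = 0.1084). The lone intermediate value of Pax3 was that of Sox2-positive replicate a. Foxc1, a forkhead factor of mesenchyme, had 6.33 and 3.88 against 8.46 and 9.65 (15.5-fold lower) and lost its call with the 4 sorted arrays alone (limma adjusted p = 0.0803). Of 24 AP-1 and ATF factors 0 were called higher and 2 lower. Fosl1, an AP-1 subunit, had 3.15 and 3.62 against 8.36 and 7.93 (at least 17.7-fold lower; log2 difference -4.76, SE 0.41, adjusted p = 0.000474) and was held. Both its Sox2-positive arrays lay under 4 and both its Sox2-negative arrays near 8. Pparg, the master nuclear receptor of fat cells, was held at least 4.24-fold lower with 3.18 and 2.25 against 5.79 and 6.38. 

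**Figure D2:**
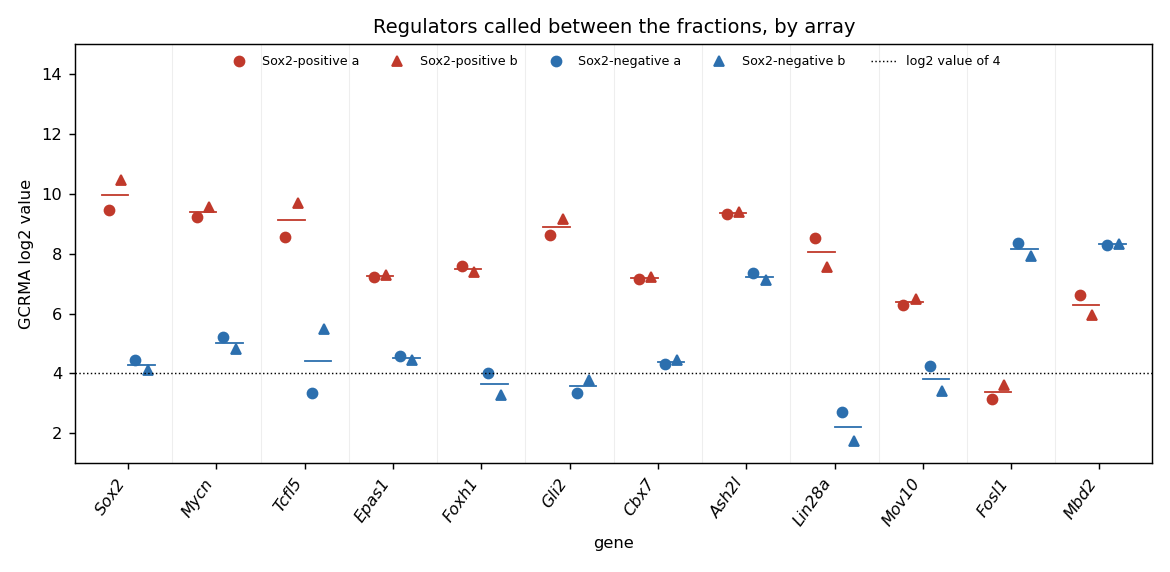
GCRMA log2 values (vertical axis) of 12 regulators called between the fractions on each of the 4 sorted arrays, with circles for replicate a, triangles for replicate b, red for Sox2-positive, blue for Sox2-negative and short lines for the mean of 2 arrays. The 4 arrays of Mycn lie at 9.23 and 9.55 against 5.21 and 4.8 and those of Fosl1 at 3.15 and 3.62 against 8.36 and 7.93. In none of the 12 genes do the fractions overlap, which holds for all 1076 called genes and for 4439 of the 8599 genes tested.

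Chromatin regulators changed by subunit. Of 32 Polycomb and trithorax genes 6 were called higher and 2 lower (18.8% and 6.2%), or 2 and 0 without Sox2-positive replicate b. Cbx7, which reads the Polycomb mark in pluripotent cells, had 7.14 and 7.23 against 4.3 and 4.44 (7.04-fold higher; log2 difference 2.82, SE 0.3, adjusted p = 0.0010), and Ash2l, a core subunit of histone H3 lysine methyltransferases, had 9.31 and 9.4 against 7.35 and 7.12 (4.35-fold higher; log2 difference 2.12, SE 0.33, adjusted p = 0.0053). Both were held. The Polycomb repressive complex 2 genes Mtf2, Jarid2 and Suz12 were called 3.82-fold, 3.96-fold and 2.40-fold higher, and the Polycomb repressive complex 1 genes Bmi1 and Yaf2 3.53-fold and 5.37-fold lower. These 5 calls were not held, with highest adjusted p-values of 0.0571 to 0.1397 over the 5 fits, and all of them were lost without Sox2-positive replicate b (adjusted p = 0.0524 to 0.0903). Mbd2, a reader of methylated DNA in the NuRD complex, was held 4.07-fold lower with 6.63 and 5.95 against 8.3 and 8.33. Histone demethylases and methyltransferases (2 higher and 1 lower of 31) and remodelling subunits (3 and 2 of 37) lay near the background.

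RNA regulators had 5 of 31 genes called higher and 1 lower, or 2 and 0 without Sox2-positive replicate b. Lin28a, which blocks maturation of let-7 microRNAs, had 8.53 and 7.55 against 2.71 and 1.74 (at least 16.5-fold higher; log2 difference 5.82, SE 0.69, adjusted p = 0.0015), and the RNA helicase Mov10 had 6.27 and 6.49 against 4.26 and 3.4 (5.86-fold higher; log2 difference 2.55, SE 0.36, adjusted p = 0.0032). In both the fractions did not overlap and the call was held. The germline genes Ddx4 (at least 2.21-fold higher) and Piwil2 (at least 1.87-fold higher) were called higher, and their calls were lost in 3 and 4 of the 5 fits, Sox2-positive replicate b being among the arrays on which each rested (without it, adjusted p = 0.0923 and 0.1507).

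Secreted factors stood on both sides, with held calls in each direction. Fgf4, the autocrine growth factor of pluripotent cells, had 8.35 and 9.21 against 5.28 and 4.0 (17.6-fold higher; log2 difference 4.14, SE 0.52, adjusted p = 0.0021). Gdf3, a Tgf-beta family ligand, had 9.06 and 8.71 against 4.35 and 3.62 (29.9-fold higher; log2 difference 4.9, SE 0.5, adjusted p = 0.000796). The heparin-binding growth factor midkine (Mdk) had 8.77 and 8.59 against 4.12 and 5.22 (16.1-fold higher; log2 difference 4.01, SE 0.59, adjusted p = 0.0043). All 3 were held, and each had its Sox2-positive arrays within 1 log2 unit of each other. Nodal (4.39-fold) and its antagonist Lefty1 (at least 4.68-fold) were called higher but not held. The call of Lefty1 did not stay without Sox2-positive replicate b (limma adjusted p = 0.0757), and that of Nodal did not stay with the 4 sorted arrays alone (limma adjusted p = 0.0935), without Sox2-positive replicate a (limma adjusted p = 0.0548), without Sox2-positive replicate b (limma adjusted p = 0.1637) and without Sox2-negative replicate a (limma adjusted p = 0.1560).

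In the other direction, Csf1, the growth factor of macrophages whose promoter is printed above, had 3.58 and 3.13 against 9.26 and 8.12 (at least 25.8-fold lower; log2 difference -5.34, SE 0.46, adjusted p = 0.000474). The chemokine Ccl9 had 2.5 and 2.62 against 5.61 and 5.71 (at least 3.16-fold lower; log2 difference -3.1, SE 0.36, adjusted p = 0.0013). Ccn1 (Cyr61), a matricellular protein and a known target of Yap, had 7.46 and 6.73 against 9.82 and 9.72 (6.39-fold lower; log2 difference -2.68, SE 0.32, adjusted p = 0.0017). These calls were held and the 4 arrays of each gene split by fraction. Of 9 chemokines tested Ccl9 was the 1 called, and of 10 interleukins, colony stimulating factors and Tnf ligands 2 were called lower and 0 higher. Clcf1, a cytokine of the interleukin 6 family, was the second, and its call was lost with the 4 sorted arrays alone (limma adjusted p = 0.0560). Fgf18 (at least 3.66-fold lower) and the Wnt inhibitor Wif1 (at least 2.69-fold lower) were lower, with the call of Fgf18 lost with the 4 sorted arrays alone (limma adjusted p = 0.0984), without Sox2-positive replicate b (limma adjusted p = 0.0830) and without Sox2-negative replicate b (limma adjusted p = 0.0508) and that of Wif1 lost with the 4 sorted arrays alone (limma adjusted p = 0.1176) and without Sox2-positive replicate b (limma adjusted p = 0.0976). Insulin-like growth factor binding proteins moved both ways. Igfbp7 had 4.14 and 4.42 against 7.42 and 7.5 and was held 9.06-fold lower, and Igfbp4 had 8.76 and 9.32 against 4.85 and 5.92 (12.6-fold higher), a call lost without Sox2-positive replicate b (limma adjusted p = 0.0581). 

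Proteases and their inhibitors had calls in both directions. The serpins, cathepsins and plasminogen genes had 4 of 25 called lower and 2 higher, or 2 and 1 without Sox2-positive replicate b, while 13 of the 25 lay above 0. The metalloproteases and their inhibitors had 3 of 21 called lower and 1 higher, or 3 and 0 without that array, and 16 lay below 0. Serpinf1 (pigment epithelium-derived factor) had 2.68 and 2.74 against 6.9 and 7.01 and was held at least 7.75-fold lower (log2 difference -4.25, SE 0.29, adjusted p = 0.000261). The metalloprotease Adamts1 had 2.12 and 2.22 against 5.36 and 4.69 and was held at least 2.04-fold lower. Serpinb9g, from a cluster of close copies, was held at least 1.52-fold lower. The broad protease inhibitor alpha-2-macroglobulin (A2m) was held on the other side, at least 4.42-fold higher with 6.26 and 6.03 against 2.5 and 2.29. 

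Matrix genes differed in both directions: of 40 matrix genes other than collagens, 7 were called higher and 7 lower, each 17.5%, or 6 and 3 without Sox2-positive replicate b. Fibronectin (Fn1) had 10.90 and 11.09 against 8.04 and 7.09 (10.8-fold higher; log2 difference 3.43, SE 0.39, adjusted p = 0.0013). The laminin chain Lama3 was held 6.36-fold higher, the basement membrane linker Nid2 7.70-fold higher and the cell surface proteoglycan Sdc4 11.8-fold higher. Efemp1 (fibulin 3) had 2.55 and 3.02 against 8.65 and 8.21 (at least 21.6-fold lower; log2 difference -5.65, SE 0.33, adjusted p = 0.000261). Thrombospondin 1 (Thbs1) had 2.49 and 1.87 against 8.35 and 7.37 (at least 14.52-fold lower) and the small proteoglycan biglycan (Bgn) 3.79 and 2.56 against 8.3 and 7.74 (at least 16.2-fold lower). All 3 lay under 4 on both Sox2-positive arrays and above 7 on both Sox2-negative arrays. Collagens and their modifying enzymes had 7 of 32 called lower and 3 higher (21.9% and 9.4%), with a median of -0.82 (0 with dim genes at their bound), or 4 and 1 without Sox2-positive replicate b. The collagen VI chains Col6a1 (2.16 and 2.82 against 5.53 and 6.17) and Col6a3 (1.93 and 1.62 against 4.06 and 4.18) and the crosslinking enzyme Loxl4 (3.5 and 3.09 against 5.71 and 6.64) were held lower, and Col9a3 with 7.29 and 5.35 against 2.09 and 2.73 was held at least 4.99-fold higher. 

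**Figure D3:**
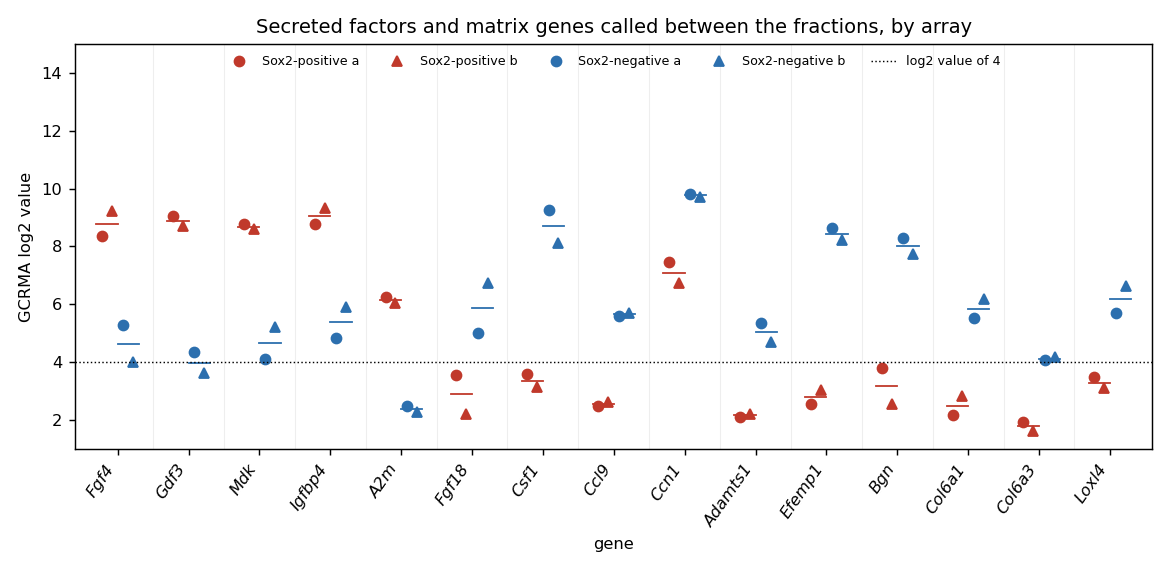
GCRMA log2 values (vertical axis) of 15 secreted and matrix genes called between the fractions, with circles for replicate a, triangles for replicate b, red for Sox2-positive, blue for Sox2-negative and short lines for the mean of 2 arrays. The first 5 genes are higher in the Sox2-positive fraction and the other 10 lower, and Fgf18, Csf1, Ccl9, Adamts1, Efemp1, Bgn, Col6a1, Col6a3 and Loxl4 lie under the dotted line at 4 on both Sox2-positive arrays.

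Receptor tyrosine kinases had 6 of 23 genes called lower and 1 higher (26.1% and 4.3%), or 2 and 1 without Sox2-positive replicate b and 3 and 2 without replicate a. Fgfr4, a receptor for fibroblast growth factors, was the 1 higher and was held, with 5.49 and 6.64 against 2.22 and 2.22 (at least 4.18-fold higher; log2 difference 3.85, SE 0.63, adjusted p = 0.0065). The Wnt receptor Ryk (2.94-fold), Fgfr1 (2.41-fold), the insulin receptor Insr (2.06-fold), Axl (at least 2.03-fold), Egfr (at least 2.04-fold) and the collagen receptor Ddr2 (at least 2.11-fold) were the 6 lower, and 0 of these calls were held. Ryk lost its call with the 4 sorted arrays alone (limma adjusted p = 0.0715) and Fgfr1 with the 4 sorted arrays alone (limma adjusted p = 0.1064) and without Sox2-negative replicate a (limma adjusted p = 0.0506), and the highest adjusted p-values of the other 4 were 0.1263 to 0.2104. Each of these 4 was lost without Sox2-positive replicate a (adjusted p = 0.0511, 0.0527, 0.1547 and 0.0892 for Insr, Axl, Egfr and Ddr2).

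Several genes of epithelial cell contacts were higher. Of 22 desmosome and tight junction genes 5 were called higher and 2 lower, or 4 and 1 without Sox2-positive replicate b and 5 and 4 without replicate a. Cldn4 had 6.94 and 6.26 against 2.63 and 1.61 (at least 6.06-fold higher; log2 difference 4.48, SE 0.47, adjusted p = 0.000858), and its promoter with 2 AP-1 matches is printed above. The claudin Cldn6 (8.94-fold higher), the adhesion molecule Epcam (4.49-fold higher) and E-cadherin (Cdh1, 15.5-fold higher) were held higher. Keratins and cornified envelope genes had 2 of 18 called higher and 3 lower, or 0 and 2 both without Sox2-positive replicate b and with the 4 sorted arrays alone. Krtdap, a secreted protein of stratified epithelium, had 7.27 and 5.77 against 10.76 and 11.60 and was held 25.3-fold lower, and Krt6b, a keratin of stressed epithelium with a close copy in Krt6a, had 2.19 and 3.25 against 8.32 and 11.13 and was held at least 52.9-fold lower. Krt6a lay at 2.04 and 1.06 against 4.01 and 1.64 and was not called. The Notch ligand Dll1 was held at least 2.63-fold higher with 5.32 and 5.47 against 3.46 and 2.75. 

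Signalling components showed fewer held calls. Gli2, the main activating transcription factor of the Hedgehog pathway, had 8.62 and 9.16 against 3.35 and 3.79 (at least 29.7-fold higher; log2 difference 5.32, SE 0.5, adjusted p = 0.000583) and was held. Smo, the pathway's transducer at the membrane, was 2.83-fold lower with 8.53 and 8.64 against 9.94 and 10.23, a call lost with the 4 sorted arrays alone (limma adjusted p = 0.0720), without Sox2-positive replicate a (limma adjusted p = 0.0609), without Sox2-positive replicate b (limma adjusted p = 0.0763) and without Sox2-negative replicate b (limma adjusted p = 0.0742). Of 25 Hippo pathway and Yap target genes 0 were called higher and 5 lower (20%), with a median of -0.36 (-0.32 with dim genes at their bound), and without Sox2-positive replicate b Ccn1, the 1 held member, was the 1 called. Amotl2 (2.70-fold) and the kinase gene Lats2 (6.11-fold), both known to respond to Yap, were among the 5, and their calls were lost without Sox2-positive replicate b (limma adjusted p = 0.1380 and 0.2239). Dusp14, a phosphatase of the dual specificity family, had 3.77 and 3.52 against 8.36 and 7.28 and was held at least 14.1-fold lower. 

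Calcium-binding proteins of the annexin and S100 families were lower: 8 of 16 tested were called lower and 0 higher (50%), with a median difference of -2.0 (-1.55 with dim genes at their bound), and 6 and 0 without Sox2-positive replicate b. S100a6 had 9.13 and 8.47 against 11.79 and 12.50 (10.2-fold lower; log2 difference -3.35, SE 0.53, adjusted p = 0.0059) and S100a4 2.48 and 2.18 against 6.82 and 6.96 (at least 7.41-fold lower; log2 difference -4.56, SE 0.46, adjusted p = 0.000796). S100a3 and Anxa3 were held lower as well, by at least 3.06-fold and 2.81-fold. The abundant annexins Anxa1 (8.69-fold), Anxa2 (6.73-fold), Anxa5 (3.73-fold) and Anxa8 (7.65-fold) were called lower, and all 4 calls were lost with the 4 sorted arrays alone, with adjusted p-values there of 0.0899, 0.1090, 0.0740 and 0.0974. Sox2-positive replicate a held an intermediate value for Anxa1, Anxa2 and Anxa8, for example 6.4 and 4.29 against 8.77 and 8.16 for Anxa1.

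**Figure D4:**
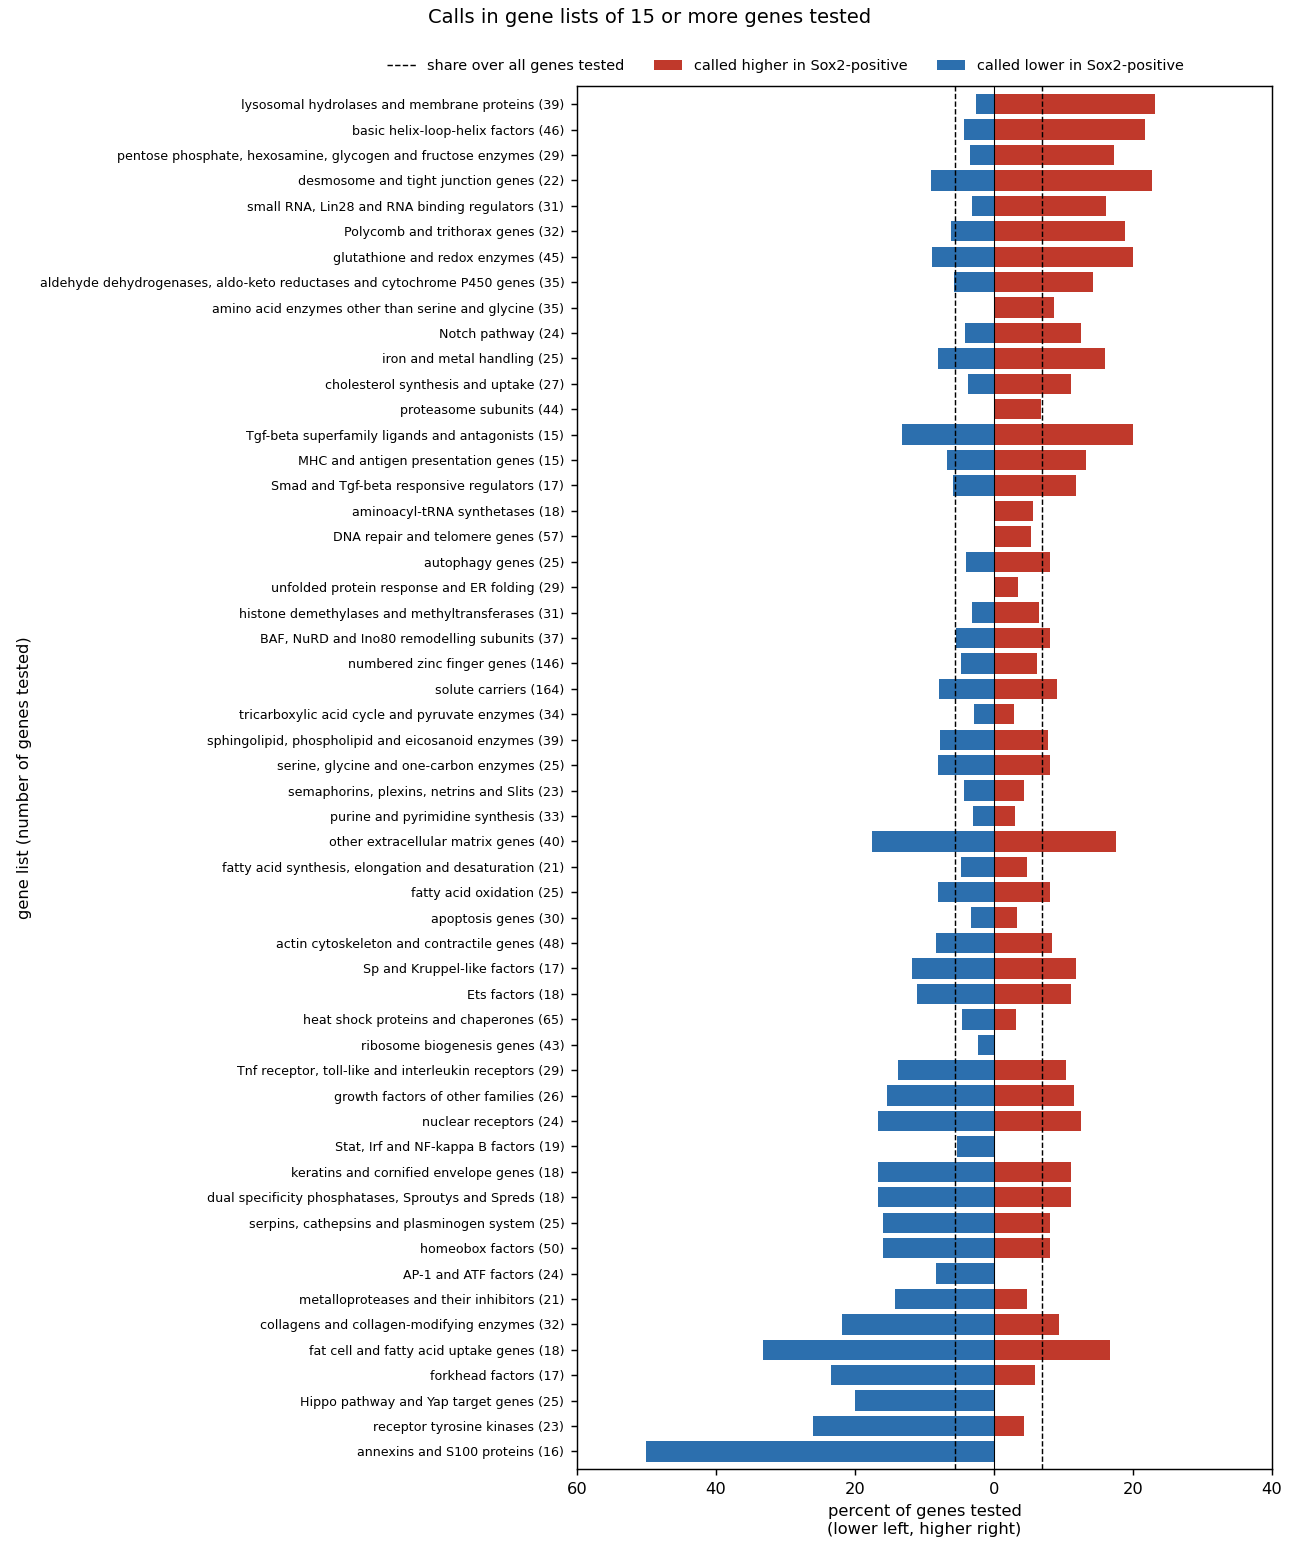
Percent of the genes tested in each gene list shown, all of at least 15 genes, that were called higher (red, to the right) or lower (blue, to the left) in the Sox2-positive fraction, with the number tested in brackets. Dashed lines mark the shares over all 8599 genes, 6.86% higher and 5.65% lower. Annexins and S100 proteins reach 50% lower at the bottom and lysosomal genes 23.1% higher at the top.

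Metabolism of fat showed the widest split. Fatty acid binding proteins carry fatty acids in the cytosol, and members known from different tissues stood on opposite sides. Fabp3, the heart form, had 11.01 and 11.10 against 3.5 and 4.9 (116-fold higher; log2 difference 6.86, SE 0.52, adjusted p = 0.000341), and Fabp4, the fat cell form, had 5.43 and 5.14 against 12.15 and 11.25 (85.3-fold lower; log2 difference -6.42, SE 0.65, adjusted p = 0.000796). The fatty acid transporter Cd36 had 2.23 and 2.34 against 7.29 and 5.44 (at least 5.15-fold lower) and lipoprotein lipase (Lpl) 5.13 and 4.68 against 8.14 and 7.72 (8.14-fold lower). With Pparg these make 4 held falls among 18 fat cell and fatty acid uptake genes, of which 6 were called lower and 3 higher (33.3% and 16.7%), or 5 and 2 without Sox2-positive replicate b. Adiponectin (Adipoq), the secreted product of mature fat cells, stayed under 4 on all 4 arrays (1.78 and 1.62 against 1.8 and 3.49), and Cebpa, which was called lower, did as well. Enzymes of fatty acid oxidation (2 higher and 2 lower of 25) and of fatty acid synthesis (1 and 1 of 21) lay near the background. The cholesterol exporter Abcg1 had 7.94 and 7.57 against 2.06 and 2.72 and was held at least 13.5-fold higher, 1 of 3 called higher among 27 cholesterol genes. 

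Lysosomal genes were higher: 9 of 39 were called higher and 1 lower (23.1% and 2.6%), 30 of the 39 lay above 0 and the median difference was 0.62 (0.52 with dim genes at their bound), with 3 and 1 called without Sox2-positive replicate b. The beta-mannosidase gene Manba had 9.36 and 9.83 against 6.7 and 5.62 (10.8-fold higher; log2 difference 3.44, SE 0.54, adjusted p = 0.0055), and Hexa, a subunit of beta-hexosaminidase, 8.71 and 8.79 against 6.04 and 6.1 (6.41-fold higher; log2 difference 2.68, SE 0.38, adjusted p = 0.0034). The lysosomal membrane protein Cd68, also used as a macrophage marker, had 6.96 and 6.9 against 4.16 and 4.17 (6.80-fold higher; log2 difference 2.77, SE 0.34, adjusted p = 0.0018). The 2 arrays of each fraction were close for Hexa and Cd68 and the fractions did not overlap. Ctsa, Glb1, Gla, Gm2a, Npc1 and Cln3 were the other 6 called higher, with differences of 1.22 to 1.74 log2 units, and lost their calls in at least 1 fit, with highest adjusted p-values of 0.0632 to 0.1801. All 6 were lost without Sox2-positive replicate b (adjusted p = 0.0599 to 0.1639). Ids, the iduronate sulfatase gene, was the 1 called lower, held, with 5.08 and 4.12 against 7.18 and 6.9 (5.43-fold lower). The autophagy kinase Ulk1 was held 4.16-fold higher, 1 of 3 calls among 25 autophagy genes. 

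Redox and detoxification enzymes differed in both directions. Of 45 glutathione and redox genes 9 were called higher and 4 lower (20% and 8.9%), with a median of 0.57 (0.26 with dim genes at their bound), or 2 and 2 without Sox2-positive replicate b. The glutathione transferase Gstm3 had 6.13 and 7.43 against 2.35 and 2.18 (at least 6.87-fold higher; log2 difference 4.52, SE 0.66, adjusted p = 0.0042), and its family holds close copies. The microsomal glutathione transferase Mgst1 had 2.82 and 3.56 against 9.18 and 7.89 (at least 23.2-fold lower; log2 difference -5.35, SE 0.63, adjusted p = 0.0014). Glutathione peroxidases reduce peroxides, and Gpx2, Gpx3, Gpx4 and Gpx7 were called higher by at least 4.66-fold, 5.39-fold, 2.64-fold and at least 2.54-fold, while Gpx8 was called at least 1.97-fold lower. None of these 5 calls was held, with highest adjusted p-values of 0.0642 to 0.1521, and the 4 rises were lost without Sox2-positive replicate b (adjusted p = 0.0642 to 0.1521). The epoxide hydrolase Ephx2 had 7.14 and 7.06 against 3.2 and 2.36 and was held at least 8.57-fold higher. Cyp1b1, a cytochrome P450 of stromal cells, was at least 16-fold lower with 2.55 and 2.77 against 8.24 and 7.76, and its call was lost without Sox2-positive replicate a (limma adjusted p = 0.0626), without Sox2-positive replicate b (limma adjusted p = 0.0842), without Sox2-negative replicate a (limma adjusted p = 0.0777) and without Sox2-negative replicate b (limma adjusted p = 0.0590).

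Sugar and nucleotide metabolism changed at few steps. Of 29 genes of the pentose phosphate, hexosamine, glycogen and fructose pathways 5 were called higher and 1 lower (17.2% and 3.4%), or 2 and 0 without Sox2-positive replicate b. Pfkfb2, which sets the level of fructose 2,6-bisphosphate, had 6.36 and 6.2 against 3.69 and 4.46 and was held 4.61-fold higher. The pentose phosphate enzymes Rpe (2.83-fold) and Taldo1 (2.55-fold) were called higher, with the call of Rpe lost with the 4 sorted arrays alone (limma adjusted p = 0.0672) and that of Taldo1 lost with the 4 sorted arrays alone (limma adjusted p = 0.0877), without Sox2-positive replicate b (limma adjusted p = 0.0597) and without Sox2-negative replicate b (limma adjusted p = 0.0567). The uridine phosphorylase Upp1 had 8.01 and 8.75 against 2.94 and 3.48 and was held at least 20.8-fold higher. It was the 1 called higher of 33 genes of purine and pyrimidine metabolism, with 1 lower. Tricarboxylic acid cycle genes had 1 call in each direction of 34, and neither was held.

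Membrane transporters as a family lay near the background, with 15 of 164 solute carriers called higher and 13 lower (9.1% and 7.9%), or 5 and 4 without Sox2-positive replicate b. Slc11a1, a metal ion transporter best known from macrophage phagosomes, had 9.18 and 10.43 against 3.54 and 3.24 (at least 55.9-fold higher; log2 difference 6.42, SE 0.73, adjusted p = 0.0013). The mitochondrial aspartate and glutamate carrier Slc25a13 had 9.52 and 9.09 against 6.59 and 7.4 and was held 4.96-fold higher. The mitochondrial ATP-Mg and phosphate carrier Slc25a24 had 2.92 and 2.72 against 5.3 and 5.27 and was held at least 2.44-fold lower. Both mitochondrial carriers had replicates within 1 log2 unit of each other. The folate carrier Slc19a1 was held 4.61-fold lower. The phospholipase A2 genes divided in the same way, with Pla2g1b held at least 17.6-fold higher and Pla2g7 held 4.36-fold lower. 

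**Figure D5:**
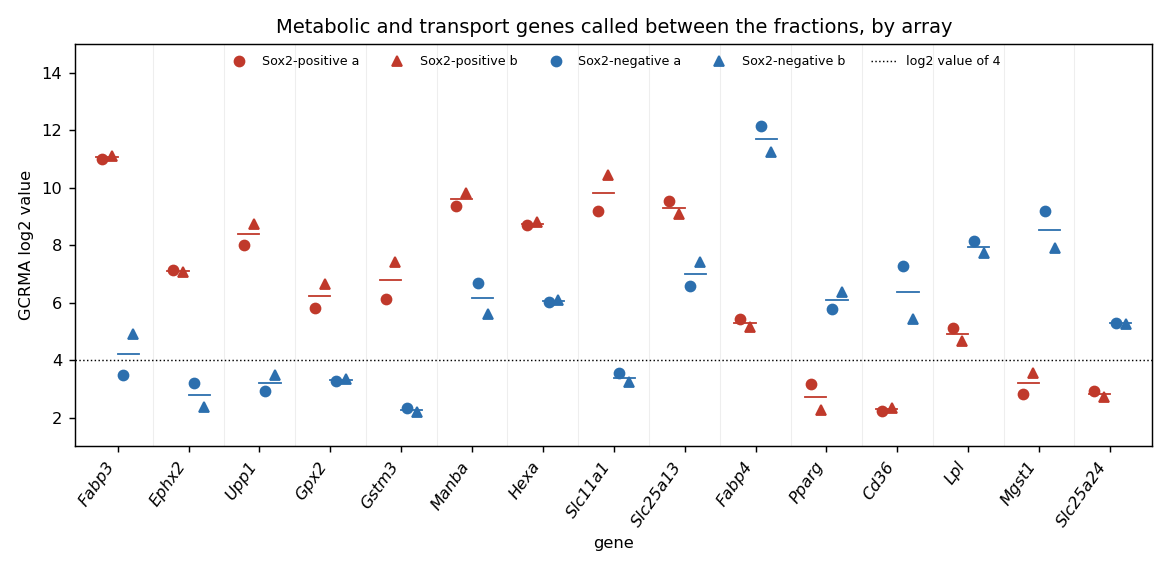
GCRMA log2 values (vertical axis) of 15 metabolic and transport genes called between the fractions, with circles for replicate a, triangles for replicate b, red for Sox2-positive, blue for Sox2-negative and short lines for the mean of 2 arrays. Fabp3 stands at 11.01 and 11.10 against 3.5 and 4.9 and Fabp4 at 5.43 and 5.14 against 12.15 and 11.25, and Ephx2, Upp1, Gpx2, Gstm3 and Slc11a1 lie under the dotted line at 4 on both Sox2-negative arrays.

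Lists of general cell maintenance had few calls. Heat shock proteins and chaperones had 2 of 65 called higher and 3 lower, proteasome subunits 3 and 0 of 44, ribosome biogenesis genes 0 and 1 of 43, unfolded protein response genes 1 and 0 of 29, and aminoacyl-tRNA synthetases 1 and 0 of 18, all with 0 held calls. DNA repair and telomere genes had 3 of 57 called higher and 0 lower, all 3 lost without Sox2-positive replicate b, while 44 of the 57 lay above 0, with a median of 0.34 (0.27 with dim genes at their bound) against -0.02 for all genes. The mismatch repair gene Msh6 had 8.86 and 9.3 against 7.51 and 7.35 and lost its call with the 4 sorted arrays alone (limma adjusted p = 0.0647) and without Sox2-positive replicate b (limma adjusted p = 0.0678). Ribosome biogenesis genes leaned the other way, with 33 of 43 below 0 and a median of -0.19. Casp8, the initiator protease of death receptor signalling, had 2.87 and 2.79 against 5.76 and 5.21 and was held at least 2.80-fold lower, the 1 held call of 30 apoptosis genes. Of 48 actin cytoskeleton and contractile genes 4 were called in each direction, or 2 higher and 1 lower without Sox2-positive replicate b, and 33 lay below 0, with a median of -0.39 (-0.27 with dim genes at their bound). The muscle LIM proteins Csrp2 (12.9-fold higher) and Fhl1 (at least 11.04-fold higher) were held higher. 

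Markers of other cell types were read on the same arrays, and their part in the results above was not tested. Of 9 fibroblast markers 1 was called lower, S100a4, and 0 higher. Of these markers 8 lay below 0, with a median difference of -1.32 (-0.49 with dim genes at their bound). The summed level of the 9 was 11.98 and 11.35 against 12.85 and 12.63. Most of it came from vimentin (Vim, 11.95 and 11.31 against 12.73 and 12.56). Col1a2 and Pdgfra, 2 of the 9, lay under 4 on all 4 arrays. Adipocyte markers had 5 of 6 called lower, and their sum was 6.62 and 6.28 against 12.30 and 11.45. On the Sox2-negative arrays that sum came mostly from Fabp4 (12.15 and 11.25), and 2 of the 6, Adipoq and Cebpa, lay under 4 on all 4 arrays. Keratinocyte markers had 3 of 8 called lower with sums of 9.73 and 8.10 against 11.50 and 12.36, and 4 of them, Krt14 and Krt16 among them, lay under 4 on all 4 arrays. Neural markers had 2 of 9 called lower, Map2 and Nefl, with sums of 9.85 and 8.59 against 10.43 and 10.75. Trophoblast markers had 3 of 6 called higher, Ascl2, Cldn4 and Krt7, with sums of 11.76 and 12.17 against 11.72 and 11.54. Endoderm markers had 0 of 6 called, with sums of 5.79 to 6.26 on the 4 arrays. Macrophage markers had 1 of 4 called, Cd68, and 1 of 5 endothelial markers was called, Pecam1, a gene that pluripotent cells also express. Among 7 muscle markers 1 was called higher and 5 lay under 4 on all 4 arrays.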

How the data were processed

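The deposited table holds log2 expression values of 22690 probe sets, made by the authors with GCRMA and the affy package, per the submitters' processing notes (versions and genome build not given in the sources used here). Trizol served for extraction and the RNA was amplified with NuGEN Ovation or Pico WTA kits, per the labels' protocols, which do not say which kit served which array. The values were used as deposited. GCRMA models background, so values under about 4 carry little information and differences near it rest partly on background.

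Probe sets with exactly 1 gene symbol (20380) were kept when above a log2 value of 4 on at least 2 of the 10 arrays (14012), and for each of the resulting 8599 genes the brightest kept probe set stood in. Limma 3.58.1 in R 4.3.3 was fitted on all 10 arrays with a mean per group, empirical Bayes moderation and Benjamini-Hochberg adjustment over all 8599 genes, at an adjusted p threshold of 0.05. For a single gene the smallest exact permutation p (two-sided) that 2 against 2 arrays allow is 0.33, and this number of arrays sets the precision. On simulated arrays of the same 8599 genes the fit called 11.9% of 67 genes given a difference of 1 log2 unit, 77.6% of 67 given 2 units and 100% of 66 given 4 units, so a gene not called may still differ by a log2 unit. No arrays were duplicates: replicates shared 0.714% and 0.721% of values.

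The members and gene lists were chosen with earlier results of these data known. Lists are described by counts and medians, with no set test. Results of a further list are not reported here. Named genes were, for each list, up to 4 held members in each direction by adjusted p (where fewer than 2 were held, called members up to 2), the 10 largest held rises and falls outside the lists, and the Yamanaka genes. Other members are named after their values were seen. Alternatives varied the samples, filter, scaling, probe set choice, floor, variance model and replicates. Promoter sequences are from RefSeq (GRCm38.p6). Plots used Python 3.11.15 and matplotlib 3.10.9.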

Additional observations from a re-analysis of the deposited data

How the results depend on the processing

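The count of 1076 called genes moved most with the samples behind the spread. It was 323 with the 4 sorted arrays alone (233 higher and 90 lower), 369 with array weights and 710 with values under 4 raised to 4. Leaving out each sorted array in turn gave 404 to 1052 calls, the lowest without Sox2-positive replicate b and the highest without Sox2-positive replicate a. For the 4 arrays alone fewer residual degrees of freedom are a property of the fit, and for the others the cause was not tested. The other alternatives, which were no filter, the 2 other filters, quantile normalization, median centring, the mean of probe sets and an intensity trend, gave 892 to 1212 calls. Letters a and b were also tried as a replicate block, which gave 1290 calls, 678 higher and 612 lower. The labels do not say what the letters share. Across genes the a minus b differences of the fractions correlated at r = 0.048. This value cannot settle whether arrays of the same letter came from the same culture or sort. Of 169 genes named by the rule, 0 of the 166 called changed sign under any of these alternatives. For the omission of single arrays this was fixed in advance, because no called gene had overlapping fractions. The fit of the 4 sorted arrays alone keeps the same means, and held genes were chosen for keeping their direction. The unchanged signs are therefore no separate support for the calls. Signs turned in 3 settings of genes that were not called: Pou5f1 was -0.21 without Sox2-positive replicate a and -0.46 without Sox2-negative replicate a (its range over the 4 omissions was -0.46 to 0.59), and Klf4 was 1.71 with the mean of its probe sets.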

Other observations

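Xist, the long noncoding RNA that coats the inactive X chromosome and is known to be silenced in pluripotent cells with 2 active X chromosomes, was not in any list and was singled out after its values were seen. It had log2 values of 5.27 and 6.96 against 1.99 and 1.85 (Sox2-positive first) and was held at least 4.33-fold higher (log2 difference 4.2, SE 0.49, adjusted p = 0.0015), with both Sox2-negative arrays under 4. On the same probe set iPSC with MEFs lay at 6.17 and 5.71. All 3 of its kept probe sets had the same sign.

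Grouping genes by the letters of their symbols, among 92 stems with at least 10 genes tested, gave shares of calls beside the lists. Over all genes tested the shares were 6.86% higher and 5.65% lower. Aldehyde dehydrogenases (Aldh) had 3 of 14 called higher and 1 lower, Tex genes 2 of 10 higher and 0 lower, and Pla genes 2 of 10 higher and 1 lower. Trim genes, which encode ubiquitin ligases, had 5 of 27 higher and 2 lower. The highest share called lower was that of the stem S, which holds the S100 genes, with 3 of 10 lower and 0 higher. Dual specificity phosphatases (Dusp) had 3 of 13 called lower and 1 higher, and genes with the stem Nr 3 of 14 lower and 1 higher. Abhd genes, which encode alpha/beta hydrolases, had 3 of 14 lower and 0 higher, and keratins (Krt) 2 of 10 lower and 1 higher. Stems of 10 to 27 genes give coarse shares, and these were singled out after the values were seen, with other stems of like shares not named.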
